A study of Mus musculus with 37 samples.

Results

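Endothelial cells of the injured mouse heart were selected from 2 single-cell RNA-Seq libraries of nonmyocytes, 1 from control and 1 from ENPP1CKO hearts, collected at day 7 after myocardial infarction. A cell barcode was counted as endothelial, a choice made on measured values, when Pecam1, Cdh5, Emcn, Egfl7 and Flt1 together made up at least 0.3% of its counts, C1qa, C1qb and C1qc together less than 0.3%, and Col1a1, Col1a2, Col3a1 and Dcn together less than 0.5%. This rule found 751 of 12807 barcodes, of which 616 of 7460 were in the ENPP1CKO library and 135 of 5347 in the control library. The remaining samples of the series are cultured cells and were not used. ENPP1CKO animals carried 2 floxed ENPP1 alleles and the tamoxifen-inducible Col1a2CreERT driver, which is used to delete genes in fibroblasts, and received tamoxifen from before the injury until day 7. The control animals, littermates in the study's account, are labelled wild type, both groups are of the C57BL/6 strain, and the number, age and sex of the hearts behind each library are not given in the sources used here. Because there is 1 library per genotype, no test between genotypes was made, and every interval below is a 95% interval that covers counting error only.

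Endothelial cells line blood and lymph vessels. In the heart most of them form capillaries, where fatty acids released from lipoproteins are taken up and handed on to cardiomyocytes, and after infarction new vessels sprout from those that survive at the border of the scar. ENPP1 is an ectonucleotidase that hydrolyses extracellular ATP, and the driver used here to delete it targets a different cell type from the one described.

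The labelled cell type was borne out by markers that the rule did not use. Of 25 further endothelial genes, all 25 had counts in both libraries, and together they reached 8938 counts per 1000000 counts (CPM) in the ENPP1CKO and 7845 CPM in the control barcodes. Among them were Ramp2, a receptor partner for adrenomedullin, at 926 and 945 CPM, the junction protein Esam at 689 and 577 CPM, and Cldn5, the tight junction claudin of endothelium, at 442 and 629 CPM. Of the 23 with at least 50 counts, 2 were at least 2-fold higher in ENPP1CKO and 0 lower. Among all genes tested 3.52% were as much higher and 2.2% lower. The 2 were Tspan13, at 886 and 387 CPM, and Cyyr1, at 253 and 111 CPM. Cyyr1 was within 2-fold with the marker threshold at 0.5%. Barcodes that met the rule on C1q and collagens but had under 0.2% of their counts in the marker genes reached only 1354 and 531 CPM for the same 25 genes. The barcodes just inside the threshold, at 0.3% to under 0.4%, numbered 182 and 49 and held 8682 and 7795 CPM of these genes. Those just outside, at 0.2% to under 0.3%, numbered 164 and 40 and held 8323 and 7097 CPM, close to the barcodes inside, so that the selection leaves out barcodes with much the same endothelial content. Of the 5 marker genes, Pecam1 reached 731 CPM in ENPP1CKO and 758 CPM in control barcodes, Cdh5 at 1042 and 990 CPM, Emcn at 1107 and 1085 CPM, Egfl7 at 1520 and 1445 CPM and Flt1 at 593 and 390 CPM. C1qb was at 78.7 and 81.6 CPM, C1qa at 62.6 and 92.1 CPM, C1qc at 37.6 and 57.9 CPM, Col3a1 at 179 and 147 CPM, Dcn at 143 and 124 CPM, Col1a2 at 114 and 134 CPM and Col1a1 at 53.7 and 68.4 CPM.

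The endothelial barcodes held 1118281 counts in ENPP1CKO and 379849 in control. A barcode had a median of 1474 counts and 820 genes in ENPP1CKO against 2597 counts and 1265 genes in control, so the ENPP1CKO barcodes were shallower. At least 1000 counts were found in 457 and 124 of them. Mitochondrial transcripts made up a median of 2.57% and 2.26% of counts, and Scrublet marked 1 barcode in each library as a doublet. The libraries shared 68 barcodes in all and 0 among the endothelial barcodes. Enpp1, the targeted gene, lies at chromosome 10, 24637914 to 24712159 (GRCm38), and had 0 counts in ENPP1CKO and 1 count in control endothelial barcodes. In barcodes selected on collagens and Dcn, the kind of cell the driver is meant for, Enpp1 was at 28.8 CPM in the ENPP1CKO and 120 CPM in the control library.

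Endothelial barcodes made up a larger share of the ENPP1CKO library. The share was 8.26% (exact Clopper-Pearson interval 7.64% to 8.91%) in the ENPP1CKO library and 2.52% (2.12% to 2.98%) in the control library, a difference of 5.73 percentage points. With every barcode thinned to 1000 counts the shares were 7.14% and 2.37%. The size of the difference moved with depth. Among barcodes with at least 2000 counts the shares were 3.36% (2.91% to 3.86%) and 1.99% (1.58% to 2.46%), a difference of 1.37 points. Without the barcodes of high C1q in the denominator the shares were 11.4% and 4.09%. The shares are those of recovered barcodes, and how dissociation acted on each preparation was not tested.

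Counts were summed over the endothelial barcodes of each library, and 4039 genes whose counts over both libraries reached 50 were compared. The log2 ratio, ENPP1CKO over control, had a median of -0.02. A level at least 2-fold higher in ENPP1CKO was found for 142 genes (3.52% of those tested), and a level at least 2-fold lower for 89 genes (2.2%). The interval of the ratio lay above 0 for 131 of the 142. It lay below 0 for 89 of the 89, which the minimum of 50 counts and the library totals fixed in advance. In bulk sums such as these, fewer cells that express a gene and less RNA per cell cannot be told apart.

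**Figure D1:**
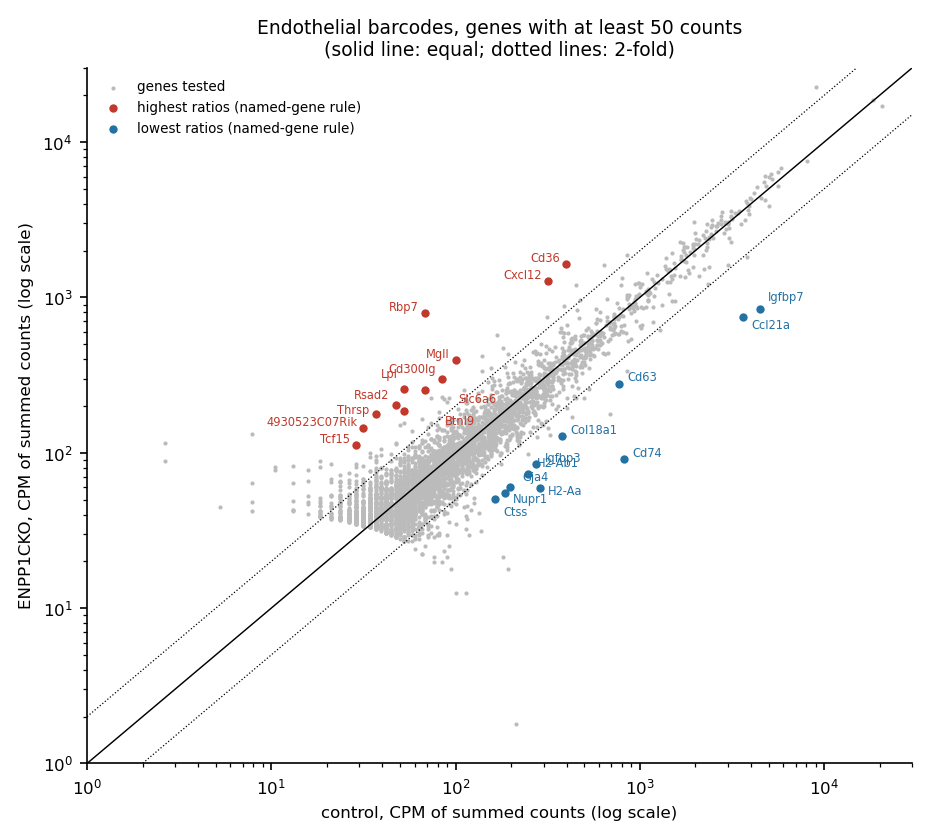
Levels of genes in endothelial barcodes of the control (x axis) and ENPP1CKO (y axis) library, in CPM of summed counts on log scales, for genes with at least 50 counts; the 3 called genes with 0 counts in a library are not drawn. Rbp7, Cd36, Cxcl12 and Lpl lie above the upper 2-fold line and Igfbp7, Ccl21a, Cd63 and Col18a1 below the lower one, while most genes lie between the dotted lines.

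Genes of fatty acid uptake had the highest median among the lists of endothelial genes. Of the 20 listed genes 15 had at least 50 counts, and 9 of these were at least 2-fold higher and 1 at least 2-fold lower in ENPP1CKO, against 3.52% and 2.2% of all genes tested. The same shares stand beside the counts of the other lists below. All lists were chosen with earlier results of these data known, so neither these counts nor the rank of a median is independent support. The median log2 ratio of the uptake genes was 1.32, against -0.02 over all genes, and it was between 0.28 and 0.82 within the venous-like, capillary-like, sprouting-like and unnamed sub-clusters described below, which hold different numbers of barcodes of each library. Together they took up 30558 CPM in ENPP1CKO and 12423 CPM in control barcodes. Fabp4, the fatty acid binding protein that dominates the group, was at 22504 CPM (22227 to 22784) in ENPP1CKO and 9011 CPM (8712 to 9319) in control. Its log2 ratio was 1.32 (interval 1.27 to 1.37). Fabp5, a second binding protein of the family, was at 1624 and 637 CPM.

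Rbp7, a retinol-binding protein of the same family that is enriched in capillary endothelium, had the largest difference of the group. It was counted 884 times in ENPP1CKO and 26 times in control barcodes, which is 790 CPM (739 to 844) against 68.4 CPM (44.7 to 100), 11.5-fold higher. Rbp7 was detected in 41.9% of ENPP1CKO and 12.6% of control barcodes, and after thinning to 1000 counts in 32.8% and 6.45%. In the macrophage-type barcodes selected on C1q, which should lack the gene, the thinned shares were 0.695% and 0.0514%, at median depths of 3365 and 3524 counts. Cd36, the scavenger receptor through which fatty acids enter the cell, was at 1629 CPM (1555 to 1706) in ENPP1CKO and 398 CPM (337 to 466) in control, 4.1-fold higher, and after thinning was found in 65% and 25.8% of barcodes. Lpl, the lipase that frees fatty acids from lipoproteins, was at 258 and 52.7 CPM, with a log2 ratio of 2.30 (1.64 to 3.03), and Gpihbp1, which anchors it to the capillary surface, was at 1884 and 856 CPM, with a log2 ratio of 1.14 (0.97 to 1.31), or 0.80 after thinning. Aqp7, a glycerol channel, was at 77.8 and 15.8 CPM.

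The transcription factors of this group differed from each other. Tcf15, which with Meox2 regulates fatty acid transport in heart endothelium, was at 113 and 29 CPM, with a log2 ratio of 1.96 (1.07 to 3.00), and Pparg, a nuclear receptor that controls lipid genes, at 60.8 and 23.7 CPM. Meox2 itself reached 85 CPM in ENPP1CKO and 84.2 CPM in control, a log2 ratio of 0.01 (-0.58 to 0.64). The caveolar genes lay below the 2-fold line, with Cav1 at 1212 and 945 CPM and Cav2 at 151 and 89.5 CPM. In the opposite direction was Angptl4, a secreted inhibitor of lipoprotein lipase, with 45.6 CPM (34 to 60) in ENPP1CKO and 116 CPM (84.2 to 156) in control. One control barcode held 31.8% of the control counts, and with the marker threshold at 0.5% the log2 ratio was 0.04, so the direction turned. Pnpla2, a triglyceride lipase, was at 48.3 and 60.6 CPM.

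**Figure D2:**
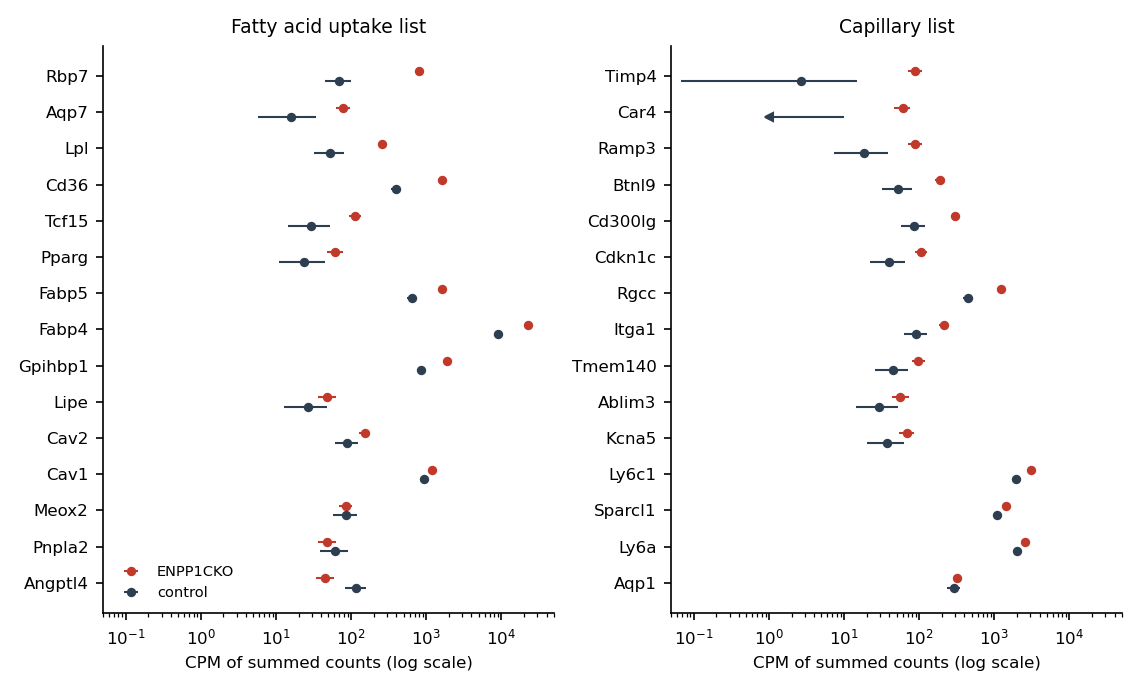
CPM of summed counts (log scale, with exact Poisson 95% intervals) for the members of the fatty acid uptake and capillary lists with at least 50 counts, in ENPP1CKO (red) and control (dark) endothelial barcodes; the arrow marks Car4, with 0 counts in control. The ENPP1CKO value is higher for all 15 capillary genes drawn, and for 13 of the 15 uptake genes, with Angptl4 and Pnpla2 lower.

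Promoter windows from RefSeq (GRCm38.p6), 250 bases before to 50 bases after a transcript start, show how the upstream sequence of these genes differs. Windows were held for 13 of the 20 uptake genes. The letters AGGTCA, a core motif bound by nuclear receptors such as the PPAR family, were searched on both strands, and 16.3% of all 32851 windows held them. The counts that follow are by gene, with a match in any of its windows, and compare with each other rather than with that share. Of the 13 uptake genes they were found for 3, namely Cd36, Aqp7 and Pparg. Among genes at least 2-fold higher in ENPP1CKO, 13 of 106 with a window held them (12.3%), among those at least 2-fold lower 5 of 71 (7.04%) and among all genes tested 469 of 3215 (14.6%). The windows of Cd36 (chr5:17835847-17836146, minus strand) and Aqp7 (chr4:41047913-41048212, minus strand), which hold matches, and of Rbp7 (chr4:149454919-149455218, minus strand), the uptake gene with the largest difference, which holds no match, are given from 5′ to 3′ with each match in capitals.
Cd36: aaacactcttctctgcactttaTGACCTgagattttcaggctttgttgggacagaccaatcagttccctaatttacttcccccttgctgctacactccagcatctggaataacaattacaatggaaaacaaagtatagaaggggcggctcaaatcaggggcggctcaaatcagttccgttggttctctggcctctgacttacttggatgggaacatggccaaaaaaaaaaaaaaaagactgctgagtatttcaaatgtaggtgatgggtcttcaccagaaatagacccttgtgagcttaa
Aqp7: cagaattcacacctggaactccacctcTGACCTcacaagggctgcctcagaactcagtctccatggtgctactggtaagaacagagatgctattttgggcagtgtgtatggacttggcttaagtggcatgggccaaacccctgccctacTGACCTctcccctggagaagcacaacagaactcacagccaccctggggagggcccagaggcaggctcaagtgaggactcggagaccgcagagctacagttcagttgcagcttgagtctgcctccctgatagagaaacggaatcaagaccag
Rbp7: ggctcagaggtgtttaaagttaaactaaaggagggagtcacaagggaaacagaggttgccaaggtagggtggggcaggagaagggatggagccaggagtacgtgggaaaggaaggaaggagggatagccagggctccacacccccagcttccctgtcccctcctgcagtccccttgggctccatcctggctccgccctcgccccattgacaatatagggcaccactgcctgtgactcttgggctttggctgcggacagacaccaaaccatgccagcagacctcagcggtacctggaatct

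Markers of capillary endothelium were higher in ENPP1CKO as a group. Of the 16 listed genes 15 had at least 50 counts, and 9 of them were at least 2-fold higher and 0 at least 2-fold lower, with a median log2 ratio of 1.24. All 15 ratios were above 0. The median was 0.82 with the marker threshold at 0.5%, and within the sub-clusters described below it was 0.26 in venous-like, 0.21 in capillary-like, 0.41 in sprouting-like and 0.75 in the unnamed barcodes. Car4, a carbonic anhydrase of the capillary surface, had 67 counts in ENPP1CKO and 0 in control barcodes, at least 7.59-fold higher when 3 counts stand for the control. Timp4, an inhibitor of metalloproteinases, had 99 counts and 1 count, a log2 ratio of 5.07 with a wide interval of 2.56 to 10.39. Btnl9 was at 187 and 52.7 CPM, Cd300lg, a mucin of the capillary surface, at 299 and 84.2 CPM, and Rgcc, a regulator of cell cycle and of endothelial responses, at 1210 and 450 CPM. The most abundant capillary genes lay nearer to equality, with Ly6c1 at 3057 and 1964 CPM and Ly6a at 2587 and 1990 CPM, and the water channel Aqp1 was at 317 CPM (284 to 351) and 287 CPM (236 to 346).

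The remaining genes with high ratios have varied roles. Mgll, which hydrolyses monoglycerides, was at 397 CPM (361 to 436) in ENPP1CKO and 100.04 CPM (70.8 to 137) in control. Thrsp, a lipogenic nuclear protein, was at 178 and 36.9 CPM. Cxcl12, the chemokine that attracts CXCR4-bearing leukocytes and progenitors, was at 1281 CPM (1216 to 1350) and 319 CPM (264 to 381), 4.02-fold higher. Slc6a6, the taurine transporter, was at 253 and 68.4 CPM. Rsad2, an interferon-induced antiviral protein, was at 202 and 47.4 CPM, while the 24 interferon-stimulated genes with enough counts had a median log2 ratio of 0.04, with 4 at least 2-fold higher (Rsad2, Ifit3, Irf1 and Ifit1) and 0 lower. The noncoding transcript 4930523C07Rik, at 144 and 31.6 CPM, completed the 12 highest ratios among genes with at least 100 counts, and at least 10 in each library, together with Tcf15, Rbp7, Cd36, Lpl, Btnl9 and Cd300lg.

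Genes with low ratios included matrix-binding proteins and markers of sprouting vessels. Igfbp7, a secreted protein of the vascular basement membrane (chromosome 5, 77349240 to 77408041, GRCm38), was counted 942 times in ENPP1CKO and 1696 times in control barcodes. Its level was 842 CPM (789 to 898) against 4465 CPM (4255 to 4683), 5.3-fold lower. It was detected in 60.4% of ENPP1CKO and 89.6% of control barcodes, and in 50.8% and 86.3% after thinning. Col18a1, the precursor of endostatin, was at 128 and 376 CPM, and Igfbp3, a carrier of insulin-like growth factors, at 84.1 and 274 CPM. Cd63, a tetraspanin of endosomes and Weibel-Palade bodies, was at 279 and 774 CPM, the connexin gene Gja4 at 59.9 and 197 CPM and the stress-response gene Nupr1 at 55.4 and 184 CPM. The largest single barcode held 29.3% of the control counts of Gja4 and 32.9% of those of Nupr1. With the marker threshold at 0.5% the log2 ratios of Gja4 and Igfbp3 were -0.31 and -0.90, against -1.72 and -1.70 at 0.3%.

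Several of the lowest ratios rested on single barcodes. Cd74, the invariant chain of MHC class II, was at 91.2 and 821 CPM, but 1 control barcode held 261 of its 312 control counts, together with 91 of 109 counts of H2-Aa and 72 of 94 of H2-Ab1, which encode MHC class II chains. That barcode had 6220 counts and was the 1 control barcode that Scrublet marked as a doublet. When the barcode with the most counts of the gene was left out in each library, H2-Aa was at 55 and 48.2 CPM, with a log2 ratio of 0.19 (-0.59 to 1.04), H2-Ab1 at 71 and 58.9 CPM, with a log2 ratio of 0.27 (-0.43 to 1.02), and Cd74 at 78.4 and 136 CPM, with a log2 ratio of -0.80 (-1.31 to -0.27). In the same way 77 of 81 control counts of S100a8, an abundant neutrophil gene, and 29 of 43 of Acta2, smooth muscle actin, came from 1 barcode each. Without the richest barcode in each library both were still lower in ENPP1CKO, S100a8 with 1 and 4 counts, a log2 ratio of -3.56 (-9.18 to -0.22), and Acta2 at 11.6 and 37.3 CPM, with a log2 ratio of -1.68 (-2.89 to -0.48). For Igfbp7 the largest single barcode held 3.07% of the control counts, for Plvap 4.68% and for Col18a1 7.69%, and without it their log2 ratios were -2.39, -1.05 and -1.52.

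Sprouting and tip cell genes had a median log2 ratio of -0.41 over 17 members with enough counts, of which 5 were at least 2-fold lower and 1 at least 2-fold higher. The lower ones were Igfbp3, Col18a1, Pgf, a placental growth factor of the VEGF family, at 37.6 CPM (27.1 to 50.8) and 116 CPM (84.2 to 156), Esm1 at 29.5 and 81.6 CPM, and Plvap, which forms the diaphragms of fenestrae and caveolae, at 614 CPM (569 to 662) and 1293 CPM (1181 to 1412). The higher one was Ramp3, a receptor partner that is also on the capillary list, at 88.5 and 18.4 CPM. Without 1 sub-cluster described below, the sprouting-like one of 47 ENPP1CKO and 60 control barcodes, the list median was 0.00279 and the log2 ratios of Pgf, Igfbp3 and Col18a1 were 0.88, -0.67 and -0.87, against -1.62, -1.70 and -1.56 with it. Plvap was at -1.13 without it, and at -0.88 among barcodes with at least 2000 counts. Apln was at 56.3 and 57.9 CPM and Cd34 at 756 and 724 CPM. Receptors of growth factors and the Notch pathway had 0 of 20 members past 2-fold in either direction and a median of 0.23. Among them Kdr, the main VEGF receptor, was at 447 CPM (409 to 488) and 263 CPM (214 to 320), Robo4 at 93 and 47.4 CPM, Acvrl1 at 105 and 55.3 CPM, Eng at 427 and 413 CPM, and the homeobox gene Hhex at 51 and 86.9 CPM.

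Arterial and venous markers had medians below 0, and each kept its sign under 15 of 16 alternatives. With the marker threshold at 0.5% the arterial median was 0.19 and the venous median 0.37, and within the sub-clusters described below the venous median was 0.27 in venous-like barcodes but between -1.28 and -0.73 in the other 4, over 2 to 9 members each. The arterial median was below 0 in all 5, between -1.12 and -0.32. At the threshold of 0.3% the arterial list had a median of -0.34 over 12 genes, with Cxcl12 at least 2-fold higher and Gja5, Gja4 and Edn1 among those at least 2-fold lower. Gja5, the connexin of arterial endothelium, had 20 and 36 counts, and Edn1, which encodes endothelin, 46 and 51 counts. Without the barcodes that held at least 3 counts of G2 and M phase genes, the log2 ratio of Edn1 was 0.94. All 8 venous genes with enough counts had ratios below 0, with a median of -0.37 and 0 past 2-fold. Lrg1 was at 668 CPM (621 to 718) in ENPP1CKO and 1021 CPM (922 to 1128) in control, and Vwf, the clotting factor stored in endothelial granules, at 102 and 134 CPM. The endocardial list had only 3 genes with enough counts and was not read further.

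**Figure D3:**
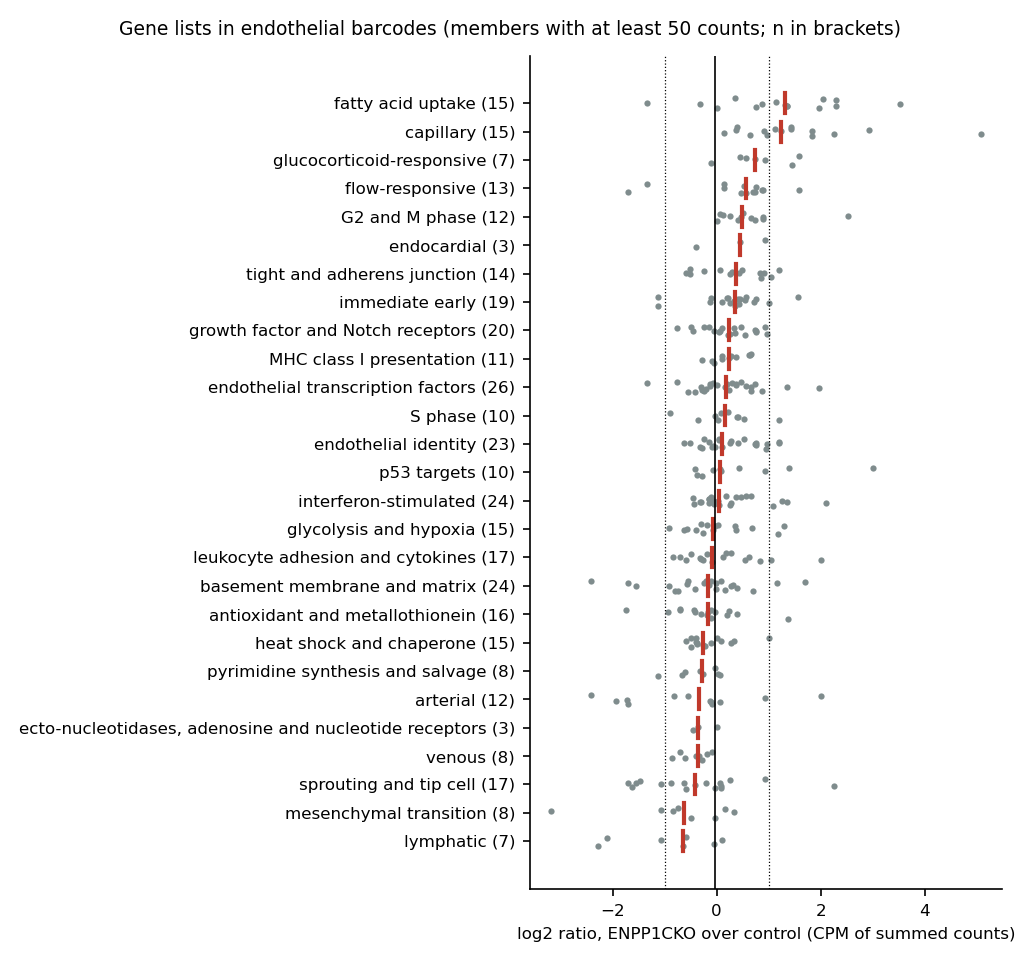
The log2 ratio of ENPP1CKO over control for each list member with at least 50 counts (grey points), with the list median in red, the median over all genes as the solid line and 2-fold as dotted lines. Fatty acid uptake and capillary genes have the highest medians, at 1.32 and 1.24, and the lymphatic list has the lowest, at -0.65.

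Adhesion molecules and cytokines that endothelium shows to leukocytes had a median of -0.09 over 17 genes, which ranged from -0.54 without the sprouting-like sub-cluster to 0.82 with the marker threshold at 0.5% and kept its sign under 10 of 16 alternatives. Only Cxcl12 and Jam3 were at least 2-fold higher, and 0 were at least 2-fold lower. The log2 ratio of Jam3 was 1.05, and 0.43 with the marker threshold at 0.5%. Vcam1 was at 173 CPM (149 to 199) in ENPP1CKO and 213 CPM (169 to 265) in control, Icam1 at 156 and 195 CPM, Selp at 76.9 and 86.9 CPM, Sele at 54.5 and 57.9 CPM and Il6 at 114 and 100.04 CPM, and the interval of each of these 5 ratios included 0. These ratios moved with the selection. At a marker threshold of 0.5% the log2 ratios of Il6, Sele and Selp were 2.54, 1.45 and 1.09. Without the barcodes that held at least 3 counts of G2 and M phase genes at full depth, called dividing barcodes below, that of Selp was -1.68. Cxcl1 was at 96.6 and 174 CPM. MHC class I genes had a median of 0.23 with 0 of 11 past 2-fold, and B2m was at 6808 and 5810 CPM.

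Matrix genes of the basement membrane had a median of -0.16 over 24 members. Igfbp7, Igfbp3 and Col18a1 were at least 2-fold lower and Lamb2 and Mgp at least 2-fold higher, the last at 431 CPM (393 to 471) and 192 CPM (151 to 242). Without the sprouting-like sub-cluster Igfbp7, at -2.09, was the 1 of the 3 lower genes still past 2-fold. The chains of type IV collagen were near equality, with Col4a1 at 964 and 1111 CPM and Col4a2 at 850 and 961 CPM, and Sparc, the most abundant member, was at 5241 and 5621 CPM. Among genes linked to mesenchymal transition, with a median of -0.62 over 8, Vim was at 1831 CPM (1753 to 1912) and 3836 CPM (3641 to 4038) and Acta2 had a log2 ratio of -3.18, or -1.68 without its richest barcodes. Among barcodes with at least 2000 counts the log2 ratio of Vim was -0.84.

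The list of endothelial transcription factors had a median of 0.19 over 26 genes, with Tcf15 and Pparg at least 2-fold higher and Klf2 at least 2-fold lower. Flow-responsive genes gave opposite values, with a median of 0.57 over 13, of which 1 was at least 2-fold higher and 2 at least 2-fold lower. Klf2, the transcription factor induced by laminar flow, was at 338 CPM (305 to 374) in ENPP1CKO and 856 CPM (765 to 954) in control, a log2 ratio of -1.34, while Thbd, thrombomodulin, which Klf2 is known to induce, was at 150 and 50 CPM, with a log2 ratio of 1.59 (0.90 to 2.35). Glucocorticoid-responsive genes had a median of 0.74 over 7, with Tsc22d3 at 417 and 140 CPM and Sult1a1 at 93.9 and 34.2 CPM at least 2-fold higher. The log2 ratio of Tsc22d3 was 0.95 with the marker threshold at 0.5%, and that of Sult1a1 0.64 after thinning. Immediate early genes had a median of 0.35 over 19, and within them Fosb was at 156 and 52.7 CPM and Fos at 2270 and 1661 CPM, but Jund was at 226 and 495 CPM and Ccn1 at 126 and 276 CPM. Without the sprouting-like sub-cluster the median of this list was 0.0079 and the log2 ratio of Fos -0.09. Of the p53 target genes 2 of 10 were at least 2-fold higher, Fas, a death receptor, with 71 and 3 counts, and Cdkn1a, the cell cycle inhibitor p21, at 476 CPM (436 to 518) and 182 CPM (141 to 230). The median of that list was 0.07, and Bax was at 281 and 374 CPM. Glycolysis and hypoxia genes had a median of -0.06 over 15, with Pgk1 at 148 and 276 CPM and Pkm at 435 and 674 CPM below equality and Ankrd37 at 116 and 47.4 CPM above it. Ankrd37 and Bnip3 were the 2 members at least 2-fold higher, at log2 ratios of 0.59 among barcodes with at least 2000 counts and 0.76 after thinning.

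Of 28 genes for ectonucleotidases, adenosine handling and nucleotide receptors, 3 had at least 50 counts. Entpd1, the ATP-hydrolysing CD39, was at 119 CPM (99.6 to 141) in ENPP1CKO and 153 CPM (116 to 197) in control, the adenosine transporter Slc29a1 at 180 and 247 CPM and Pnp at 112 and 111 CPM. Of the pyrimidine synthesis and salvage list 8 genes were readable with a median of -0.29. That median was -1.03 with the marker threshold at 0.5% and -0.12 at 0.2%. Nme1, a nucleoside diphosphate kinase, at 144 and 316 CPM, was the 1 member past 2-fold, in the lower direction. Its log2 ratio of -1.13 was -0.76 without dividing barcodes. Upp1, uridine phosphorylase, was at 125 and 197 CPM. Heat shock and chaperone genes had a median of -0.27 over 15, antioxidant genes -0.17 over 16 and junction genes 0.37 over 14, with 1, 1 and 2 genes at least 2-fold higher and 0, 1 and 0 lower.

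Cell cycle genes were sparse. The G2 and M phase list had 12 of 52 members with at least 50 counts, a median log2 ratio of 0.49, and 1 member at least 2-fold higher, Cenpf, a kinetochore protein, with 51 counts in ENPP1CKO and 0 in control. One ENPP1CKO barcode held 22 of those 51 counts, and once barcodes with at least 3 counts of G2 and M phase genes were left out, 5 and 0 counts remained. The summed level of the list was 1382 CPM in ENPP1CKO and 837 CPM in control barcodes. Without the sprouting-like sub-cluster described below the list median was 0.0867. At least 3 counts of these genes were found in 20.3% of ENPP1CKO and 29.6% of control barcodes at full depth, but after thinning to 1000 counts in 8.1% (5.76% to 11%) and 5.65% (2.3% to 11.3%), so the order of the shares turned with depth. The alternative without dividing barcodes uses the full-depth counts. What it leaves out thus depends on depth as well as on division, and its shifts cannot be laid to dividing cells. The S phase list had 1 of 10 readable members past 2-fold, Pcna, with 47 and 7 counts and a log2 ratio of 1.19 that was 0.30 without the sprouting-like sub-cluster.

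Depth per barcode was held equal to see how these levels were spread over cells. With each barcode thinned to 1000 counts, the fatty acid uptake list took up between 0% and 11.6% of a barcode's counts in ENPP1CKO, with a median of 3%, and between 0% and 4.8% in control, with a median of 1%. The 2 distributions overlapped. Without Fabp4 the medians were 0.7% and 0.3%. For sprouting genes the medians were 0.3% and 0.4%, and for Igfbp7 alone 0.1% and 0.4%, with 49.2% of ENPP1CKO and 13.7% of control barcodes at 0.

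**Figure D4:**
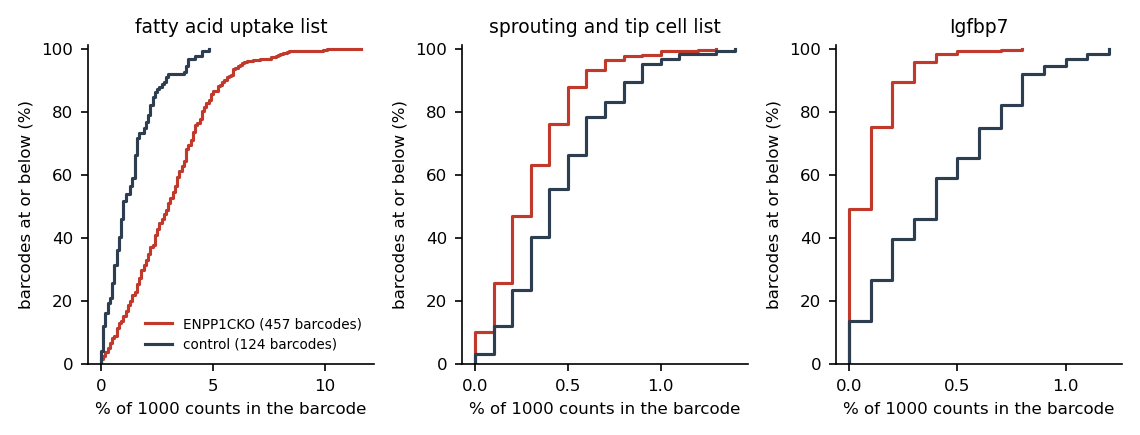
Cumulative share of endothelial barcodes (y axis, %) against the percent of 1000 thinned counts taken by the fatty acid uptake list, the sprouting and tip cell list and Igfbp7 (x axes), for 457 ENPP1CKO and 124 control barcodes. The ENPP1CKO curve lies to the right for uptake genes, with medians of 3% and 1%, and to the left for Igfbp7, with medians of 0.1% and 0.4%.

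Clustering of the 751 barcodes gave 5 sub-clusters, which describe these libraries and were named only from listed markers. A venous-like sub-cluster of 160 barcodes (120 ENPP1CKO and 40 control) was led by Il6, Sele, Selp, Vcam1 and Icam1, genes of leukocyte adhesion and cytokine signalling, and held 7 of 12 venous markers at least 2-fold above the other endothelial barcodes. A capillary-like sub-cluster of 285 barcodes (271 and 14) was led by Gm12002, Thrsp, Clic5, Lpl and Rbp7 and held 12 of 21 capillary markers. The marker sets used for naming differ in part from the lists used elsewhere, and these 12 include the uptake genes Cd36, Gpihbp1, Lpl and Rbp7. A sprouting-like sub-cluster of 107 barcodes (47 and 60) was led by genes that included Cd74, Pgf, Igfbp3 and Stmn1, held 6 of 20 sprouting markers and also 18 of 52 markers of division, 5 of 19 of macrophages and 2 of 8 of neutrophils. Here a larger share of the division markers than of the sprouting markers was met. The name sprouting-like is thus a label used in the text and figures, not a settled identity. Cd74 leads this sub-cluster through the single control barcode described above. A lymphatic-like sub-cluster of 36 barcodes (24 and 12) was led by Ccl21a, Mmrn1, Lyve1, Prox1 and Fgl2 and held 10 of 10 lymphatic markers, and the same 36 barcodes formed a cluster at each of the 3 resolutions tried. The remaining 163 barcodes (154 and 9) were led by Cdkn1a, Cxcl12, Slc6a6, Ptprr and Ier2, held 4 of 20 arterial markers as the best match and stay unnamed. Because genes that differ between the libraries define these sub-clusters, their sizes were not compared, and those with 9 and 14 control barcodes may stand for the ENPP1CKO library.

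Within sub-clusters the direction of the main genes was mostly kept. Igfbp7 reached 448 CPM in ENPP1CKO and 3921 CPM in control venous-like barcodes, a log2 ratio of -3.13 (-3.43 to -2.84), at 950 and 5543 CPM in sprouting-like barcodes, a log2 ratio of -2.54 (-2.82 to -2.28), and at 1117 and 4787 CPM in capillary-like barcodes. In lymphatic-like barcodes it had 15 and 10 counts, a log2 ratio of -0.44 (-1.69 to 0.88). Klf2 had log2 ratios of -2.09, -1.41, -0.97, -1.20 and -2.67 in the venous-like, unnamed, capillary-like, sprouting-like and lymphatic-like barcodes, and in the capillary-like ones, with 8 control counts, the interval of -2.02 to 0.29 included 0.

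Fabp4 was higher in ENPP1CKO in each sub-cluster, at 18946 and 10822 CPM in venous-like, 28914 and 18418 CPM in capillary-like, 11395 and 7604 CPM in sprouting-like, 26647 and 11570 CPM in the unnamed and 1933 and 337 CPM in lymphatic-like barcodes. Rbp7 had log2 ratios of 2.21 (1.09 to 3.58) in venous-like and 2.87 (1.97 to 3.90) in sprouting-like barcodes, with 7 and 12 control counts. Cd36 had log2 ratios of 0.56 (0.17 to 0.95) and 1.31 (0.76 to 1.88) in the same order. Gpihbp1 was equal in venous-like barcodes, at 746 and 749 CPM, and at 1736 and 977 CPM in sprouting-like ones. The list median for fatty acid uptake, over members with at least 20 counts in the sub-cluster, was 0.28 in venous-like, 0.65 in capillary-like, 0.74 in sprouting-like and 0.82 in the unnamed barcodes, each below the 1.32 of all endothelial barcodes, and 2.44 over only 3 members in lymphatic-like barcodes.

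Plvap was at 352 and 1146 CPM in sprouting-like barcodes, a log2 ratio of -1.70 (-2.19 to -1.24), and at 1351 and 1984 CPM in venous-like ones, and it was higher in ENPP1CKO, at 865 and 411 CPM, in lymphatic-like barcodes. In the sprouting-like sub-cluster 12 of 14 listed G2 and M phase genes with at least 20 counts were at least 2-fold higher in ENPP1CKO and 0 lower, against 5.17% and 5.69% of the 2478 genes with as many counts there, and the list summed to 5132 and 814 CPM. A few barcodes carried this. A group of 10 barcodes (9 ENPP1CKO and 1 control) that was led by Cenpf and split off at a resolution of 1 held 631 of the 686 ENPP1CKO counts of the list in this sub-cluster and 27 of the 145 control counts, and the median barcode of the sub-cluster had 2 such counts in each library. Without these barcodes, a choice made after seeing the data, the list summed to 565 and 676 CPM, a log2 ratio of -0.26 (-0.75 to 0.22). Only 3 members then reached 20 counts, of which 1 was at least 2-fold higher and 0 lower. Most of the 14 thus passed the minimum through barcodes in which they were high, so the 12 of 14 was not read as a result. Stmn1, a microtubule regulator of dividing cells, was at 681 and 107 CPM with them and 71.9 and 63.0 CPM without them. In venous-like, capillary-like and unnamed barcodes the medians of the list were 0.0940, 0.0281 and -0.10 over 6, 7 and 4 members.

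**Figure D5:**
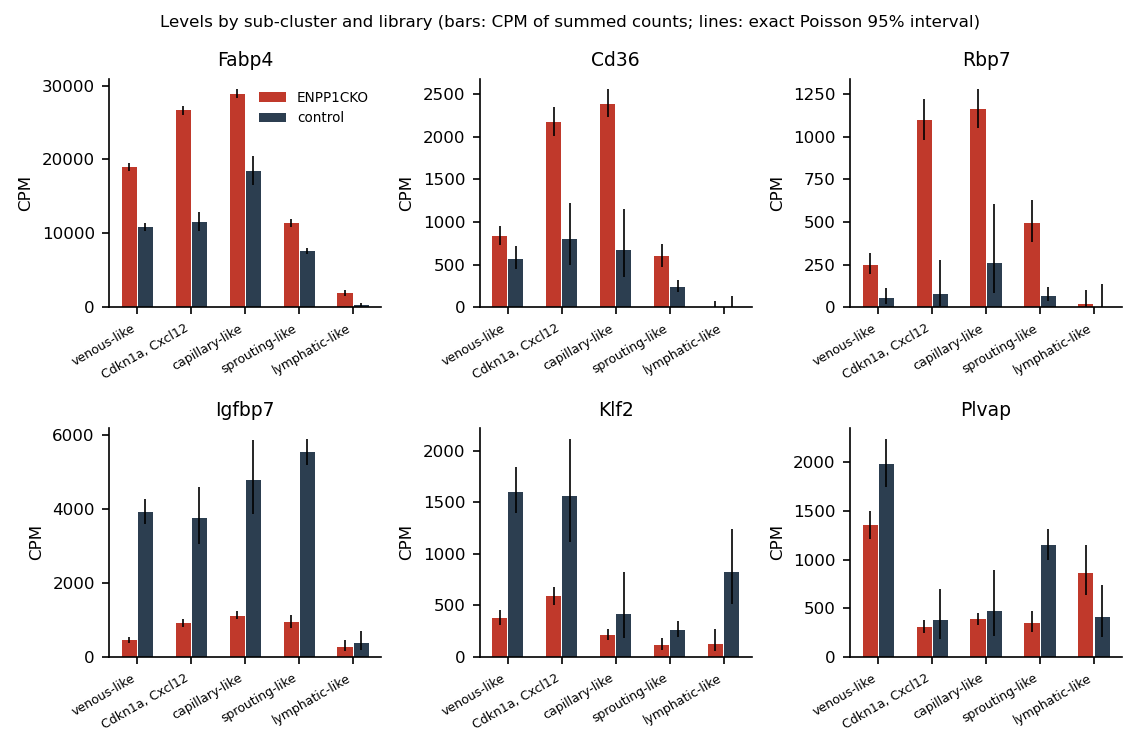
CPM of summed counts of 6 genes (panels) in the 5 sub-clusters (x axis; the unnamed one is given by its leading genes Cdkn1a and Cxcl12), for ENPP1CKO (red) and control (dark) barcodes, with exact Poisson 95% intervals. Igfbp7 is lower in ENPP1CKO in the first 4 sub-clusters and Fabp4 is higher in all 5, whereas Plvap is lower in the venous-like and sprouting-like and higher in the lymphatic-like barcodes.

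Lymphatic genes came from few cells. The lymphatic list had a median log2 ratio of -0.65 over 7 members, with Ccl21a, Fgl2 and Lyve1 at least 2-fold lower. Without the lymphatic-like sub-cluster the median was 0.99. With the marker threshold at 0.2% the log2 ratio of Lyve1 was 0.34. Ccl21a, the chemokine of lymphatic vessels, had 837 counts in 21 ENPP1CKO barcodes and 1379 counts in 12 control barcodes. Where it was found, a barcode held between 1 and 149 counts with a median of 30 in ENPP1CKO, and between 1 and 258 with a median of 96.5 in control. In lymphatic-like barcodes alone it reached 14436 CPM in ENPP1CKO and 51565 CPM in control, a log2 ratio of -1.84 (-1.97 to -1.71), against -2.28 over all endothelial barcodes. In the other endothelial barcodes it had 53 counts in ENPP1CKO and 0 in control. Near-identical copies of Ccl21a exist in the mouse genome, and how reads were shared among them is not given in the sources used here. Prox1, the factor that sets lymphatic identity, had 31 and 18 counts, a log2 ratio of -0.77 (-1.66 to 0.15).

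Some of these differences were also present in other barcodes of the same libraries. Klf2 reached 414 CPM in ENPP1CKO and 1143 CPM in control barcodes selected on collagens and Dcn, a log2 ratio of -1.46 (-1.51 to -1.42), and at 73.6 and 188 CPM in those selected on C1q. Igfbp7 was at 1124 and 3723 CPM in collagen barcodes, and Jund at 264 and 868 CPM there and at 216 and 603 CPM in C1q barcodes. Tsc22d3 was higher in ENPP1CKO in both, at 242 and 58.5 CPM and at 275 and 128 CPM. Acta2 was lower in both, at 321 and 1157 CPM in collagen and 24.5 and 42.6 CPM in C1q barcodes. S100a8 was also lower in both, at 1.75 and 22.2 CPM in collagen and 7.91 and 47.6 CPM in C1q barcodes. Of the 12 genes with the lowest ratios in endothelial barcodes, 3 were at least 2-fold lower in collagen barcodes as well, namely Igfbp7, Ctss and H2-Ab1, and 0 of the 9 with at least 50 counts in C1q barcodes, against 2.86% and 1.4% of all genes tested in those barcodes. Ccl21a, 1 of those 9, was higher in ENPP1CKO C1q barcodes, with 61 and 18 counts and a log2 ratio of 1.79 (1.01 to 2.64). Of the 12 genes with the highest ratios, 8 had at least 50 counts in each kind of barcode, and 3 of them were at least 2-fold higher in C1q barcodes (Rbp7, Cxcl12 and Mgll) and 2 in collagen barcodes (Rbp7 and Cd36), against 1.43% and 1.6% of all genes. Rbp7 had 144 counts in ENPP1CKO and 1 in control collagen barcodes, 8.41 and 0.0847 CPM, and 71 and 3 counts in C1q barcodes, 9.36 and 0.387 CPM, so the order of the libraries was the same as in endothelial barcodes at a far lower level. Cd36 was at 15.9 and 3.56 CPM in collagen barcodes and at 83.2 and 121 CPM in C1q barcodes. Vim, Cd63 and Col18a1 were within 2-fold in collagen barcodes, with log2 ratios of -0.10, -0.12 and -0.24. Fabp4 was at 208 and 48.5 CPM in collagen and 217 and 71.7 CPM in C1q barcodes, against 22504 and 9011 CPM in endothelial barcodes. Gpihbp1 was at 19 and 5.25 CPM in collagen and 19.8 and 2.19 CPM in C1q barcodes, log2 ratios of 1.86 and 3.17. Lpl, which fibroblasts and macrophages also express, was at 345 and 267 CPM in collagen and 140 and 186 CPM in C1q barcodes, and Cxcl12 at 178 and 223 CPM in collagen barcodes and at 18.2 and 4.9 CPM in C1q barcodes, a log2 ratio of 1.89 (1.37 to 2.45) in the latter. The selection markers Pecam1, Cdh5, Emcn, Egfl7 and Flt1 had log2 ratios of 0.68, 1.60, 1.92, 0.53 and 1.94 in collagen barcodes. In C1q barcodes their log2 ratios were 0.17, 1.03, 1.62, 1.52 and 1.84. Cldn5, an endothelial gene outside the rule, was at 0.12 and 0.18 in the same order. The ENPP1CKO library holds more endothelial transcripts. Whether these, or a difference between the preparations, lie behind the shared values was not tested.

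Transcripts of other cell types were few but not equal between the libraries. All 16 macrophage markers had counts in each library, and their sum was 543 CPM in ENPP1CKO and 1077 CPM in control barcodes, with Lyz2 at 161 and 311 CPM and Ctss, Lgals3 and Tyrobp at least 2-fold lower in ENPP1CKO. The 8 neutrophil markers summed to 13.4 and 284 CPM, with 3 and 4 of them at 0, and most of the control sum was the 1 barcode with S100a8. The 16 fibroblast markers summed to 484 and 376 CPM, with 0 and 1 at 0. The 12 pericyte and smooth muscle markers summed to 165 and 150 CPM, with 1 and 7 at 0, and Rgs5, a pericyte gene, had 90 and 4 counts, 26 of the 90 in 1 barcode. The 12 cardiomyocyte markers summed to 78.7 and 10.5 CPM, with 2 and 9 at 0, the 12 T and B cell markers to 86.7 and 21.1 CPM, with 8 and 8 at 0, the 6 red cell markers to 37.6 and 13.2 CPM, with 2 and 4 at 0, the 6 platelet markers to 28.6 and 36.9 CPM, with 4 and 4 at 0, and the 8 mesothelial and glial markers to 28.6 and 5.27 CPM, with 6 and 7 at 0. Igkc made up most of the lymphocyte sum, with 92 and 5 counts, and was at 1169 and 17 CPM in C1q barcodes. One control barcode held 33.9% of the control counts of Ctss, and without the barcode richest in Ctss in each library its log2 ratio was -1.21 (-1.82 to -0.58). With barcodes left out in which macrophage and neutrophil markers made up 0.3% or more of counts, 143 genes were at least 2-fold higher and 76 at least 2-fold lower, against 142 and 89 with them. Ctss and Lgals3 were then within 2-fold, at log2 ratios of -0.48 and -0.91. The part of the other cell types' transcripts was not tested.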

How the data were processed

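Nonmyocytes of control and ENPP1CKO hearts were profiled at day 7 after infarction, 1 library per genotype. The authors deposited 2 tables of unnormalised counts of molecules per Ensembl gene and cell barcode, with 31053 genes each and no barcode under 500 counts. The submitters' processing notes name Cell Ranger, STAR 2.5.3a and the builds mm10 and rn6, without roles, and which of them made the single-cell counts, how hearts were pooled and whether doublets were removed before deposit are not given in the sources used here. Tables of authors' comparisons are not among the files, 0 columns of per-sample values in the 2 tables were left unused, and the deposited bulk counts of cultured fibroblasts and neonatal myocytes were not used here.

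Symbols came from gene tables of the reference, 119 identifiers stayed without one, and the listed gene Cyr61 was matched as Ccn1. The members, lists and markers were chosen with earlier results of these data known. No barcode was removed for quality, and doublets marked by Scrublet in scanpy 1.11.5 were left out only as an alternative. Counts were summed over the endothelial barcodes of each library and divided by their total to give CPM. Genes with at least 50 counts over the libraries were compared by the ratio of CPM, with an exact Poisson interval for each level and an exact conditional binomial interval for each ratio, all at 95% and covering counting error only. A library with 0 counts was set to a floor of 3 counts. To compare shares of barcodes with a count, each barcode was thinned to 1000 counts and shallower ones were left out. The code for these ratios was tested on simulated counts.

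Sub-clusters were found from 1000 variable genes, 15 principal components, 15 neighbours and Leiden clustering at resolution 0.5, and their leading genes by fold over the other endothelial barcodes, with 20 CPM added, among genes found in at least 20% of a sub-cluster's barcodes. Genes were named by rule. Where a gene had 100 or more counts, and 10 or more in each library, the 12 highest and the 12 lowest ratios were taken, without mitochondrial, ribosomal protein and selection genes, and from each list the 2 highest, the 2 lowest and up to 2 most abundant members. Enpp1, the 12 selection genes and 5 leading genes of each sub-cluster were added, and other list members are named where a count is spelt out or a role described, chosen after their values were seen. One of the genes that this rule names is not reported here. Promoter windows are RefSeq sequences of GRCm38.p6, and the window with the most motif matches was printed for a gene. Alternatives changed the marker threshold, barcode depth, doublet and quality filter, thinning, scaling (edgeR 4.0.16 TMM factors and DESeq2 1.42.0 size factors), the summary over barcodes, the count minimum, dividing barcodes and the clustering resolution. Python 3.11.15 and R 4.3.3 were used.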

Additional observations from a re-analysis of the deposited data

How the results depend on the processing

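Each genotype is 1 library, so leaving out a replicate was not possible and the intervals cover counting error only. No paired analysis was possible because each genotype has 1 library and no test was made. The 3 alternatives of leaving out the lymphatic-like sub-cluster, the sprouting-like sub-cluster led by Cd74, or barcodes with 0.3% or more of macrophage and neutrophil markers were chosen after seeing the data. The cause of each change below was not tested, except that a smaller selection or a higher minimum leaves fewer genes to test.

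The difference in endothelial share of 5.73 points was 7.18 with the marker threshold at 0.2% and 2.79 at 0.5%, 4.07 among barcodes with at least 1000 counts and 1.37 with at least 2000, and 7.33 with C1q barcodes out of the denominator. The 142 higher and 89 lower genes became 90 and 43 with the threshold at 0.5%, 88 and 58 with at least 2000 counts per barcode, 80 and 35 after thinning, 456 and 279 with a minimum of 20 counts per gene and 33 and 17 with a minimum of 200. Without dividing barcodes 58 genes were lower. TMM factors gave 148 and 82 and DESeq2 size factors 146 and 85. The median of the fatty acid uptake list, 1.32, was 1.19 with the threshold at 0.2%, 1.42 at 0.5%, 1.25 with at least 2000 counts, 1.17 without dividing barcodes and 1.23 as the mean of per-barcode CPM, which are the lowest and highest of 16 alternatives among them. The median of the G2 and M phase list, 0.49, was 0.88 with the threshold at 0.5%, 0.0867 without the sprouting-like sub-cluster, and 0.72 and 0.75 with minima of 20 and 200 counts.

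The log2 ratio of some genes at least 2-fold lower turned positive. With the threshold at 0.2% this was Lyve1 at 0.34, and at 0.5% Angptl4 at 0.0405 and Ctss at 0.10. H2-Aa was at 0.30 and H2-Ab1 at 0.32 under the quality filter, which removes the doublet barcode, at 0.0352 and 0.12 without the sprouting-like sub-cluster, and at 0.50 and 0.28 without barcodes of macrophage and neutrophil markers. Without dividing barcodes Edn1 was at 0.94 and H2-Aa at 0.18, without the sprouting-like sub-cluster Pgf at 0.88, and without the lymphatic-like one Ccl21a was at 2.55 or more. Of 71 named genes past 2-fold, 36 were inside it under at least 1 of the alternatives and 35 under none. With the threshold at 0.5% the log2 ratios of Gja5, Fgl2, Thbd, Ifit3 and Lamb2 were within 2-fold, at -0.83, -0.25, 0.45, 0.17 and 0.69, and without dividing barcodes so were those of Fosb at 0.87, Ccn1 at -0.0411 and Mgp at 0.91. Lgals3 was at -0.64 with the threshold at 0.5%. Clustering gave 4, 5 and 10 sub-clusters at resolutions of 0.3, 0.5 and 1. Medians of the endocardial, growth factor receptor, matrix, interferon-stimulated, S phase, glycolysis, p53 target and antioxidant lists, which lay between -0.17 and 0.44, changed sign under 1 to 3 alternatives each.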
